A study of Mus musculus with 8 samples.

Results

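The 9 genes described here are the claudins Cldn1, Cldn3, Cldn4, Cldn7, Cldn8, Cldn12 and Cldn23, occludin (Ocln) and the scaffold protein ZO-1 (Tjp1), taken by name from the 25466 genes of a count table of FACS-isolated mouse medullary thymic epithelial cells (mTECs). The table holds 8 libraries, 2 from each of 4 subsets sorted by surface Tspan8, a tissue-restricted antigen, and by MHC class II (MHCII). The subsets were Tspan8neg MHCIIlo, Tspan8neg MHCIIhi, Tspan8pos MHCIIhi and Tspan8pos MHCIIlo. All of them came from the thymus of wild-type BL6N6 mice aged 4 to 6 weeks and passed the same gate, CD45neg, EpCAMpos and CDR1neg, so that no subset carried a genetic change and all were chosen for surface EpCAM. The number of mice behind a library and whether libraries pooled mice are not given in the sources used here. The study places immature cells in Tspan8neg MHCIIlo and late mTECs that have lost MHCII in Tspan8pos MHCIIlo, so that a low MHCII level alone does not mark a stage, and each sorted subset may hold more than 1 kind of mTEC.

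Tight junctions seal the space between neighbouring epithelial cells near their apical side. Claudins are membrane-spanning proteins that form the strands of the junction, and the set of claudins that a cell makes decides whether the seal holds back ions or lets some of them through. Occludin is a second kind of strand protein, and ZO-1 links the tails of claudins and occludin to actin. In the thymus, Cldn3 and Cldn4 are known as surface markers of the mTEC lineage. Cldn7 is known to bind EpCAM, and Cldn1 is required for the barrier of the skin. Cldn8 is best known from the distal nephron and the colon, Cldn12 lacks the tail motif by which other claudins bind ZO proteins, and Cldn23 is a claudin of differentiated gut and skin epithelium.

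The sequences just before the start sites of Cldn1, Cldn3, Cldn4 and Cldn7 are shown because these are the 4 claudins with the most counts, and because all of them were higher in Tspan8pos cells in at least 1 comparison. Cldn3 and Cldn4 lie next to each other on chromosome 5, with 39279 bases between them in the GENCODE annotation of GRCm38. Cldn4 occupies chr5:134945119-134946934 on the minus strand and Cldn3 chr5:134986214-134987472 on the plus strand. Cldn1 lies at chr16:26356642-26371841 on the minus strand and Cldn7 at chr11:69964779-69967885 on the plus strand. The windows hold the 250 bases upstream of the RefSeq start in GRCm38.p6, read 5′ to 3′ on the strand of the gene. They span chr16:26371840-26372089 for Cldn1, chr5:134985964-134986213 for Cldn3, chr5:134946935-134947184 for Cldn4 and chr11:69964529-69964778 for the upstream of the 2 starts of Cldn7. Capitals mark every match on either strand of CCGGAAG (a longer Ets motif), AACNNGTT (Grainyhead-like), GGGTGTGG (Krüppel-like), CACCTG (the E-box of Snail and Zeb), TATAAA and TGACTCA (AP-1), the last of which was added after the sequences were seen.
Cldn1: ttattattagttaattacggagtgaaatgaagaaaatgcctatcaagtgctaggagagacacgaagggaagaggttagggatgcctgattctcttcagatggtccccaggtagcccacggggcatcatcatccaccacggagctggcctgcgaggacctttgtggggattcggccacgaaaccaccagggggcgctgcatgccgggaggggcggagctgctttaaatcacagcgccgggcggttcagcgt
Cldn3: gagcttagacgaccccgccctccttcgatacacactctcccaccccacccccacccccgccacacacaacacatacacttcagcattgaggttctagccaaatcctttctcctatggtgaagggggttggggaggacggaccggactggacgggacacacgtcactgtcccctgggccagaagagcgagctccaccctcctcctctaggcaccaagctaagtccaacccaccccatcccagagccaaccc
Cldn4: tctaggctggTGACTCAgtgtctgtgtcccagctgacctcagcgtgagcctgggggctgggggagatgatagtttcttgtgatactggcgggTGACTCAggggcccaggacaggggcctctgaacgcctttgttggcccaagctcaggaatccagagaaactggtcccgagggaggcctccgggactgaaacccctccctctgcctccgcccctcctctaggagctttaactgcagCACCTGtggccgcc
Cldn7: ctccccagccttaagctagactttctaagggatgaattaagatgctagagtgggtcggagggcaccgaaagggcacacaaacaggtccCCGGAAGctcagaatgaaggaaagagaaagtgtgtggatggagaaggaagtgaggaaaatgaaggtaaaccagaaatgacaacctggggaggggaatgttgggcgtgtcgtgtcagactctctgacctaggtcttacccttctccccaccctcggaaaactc

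Of these 4 windows, those of Cldn1 and Cldn3 held none of the capitalised motifs. The Cldn4 window held TGACTCA at 2 places, ending 234 and 152 bases before the start, and CACCTG once, 14 to 9 bases before it. The Cldn7 window held CCGGAAG once, 162 to 156 bases before the start. Among 32851 windows of the same length in the RefSeq promoter table, 4.46% held TGACTCA, 17.2% CACCTG, 6.91% CCGGAAG, 3.64% AACNNGTT, 3.2% GGGTGTGG and 12.4% TATAAA. The palindrome AACCGGTT, a stricter Grainyhead-like motif found in 0.116% of windows, had no match in any window of the members. The short letters GGAA, the core of the Ets motif, occur in 93.4% of all windows and CACCC in 52.0%. Cldn3 held CACCC at 5 places and GGAA at none, while the first Cldn7 window held GGAA at 6 places and CACCC once. Promoter windows were found for 7 of the 9 members, not for Cldn8 and Cldn23. Each of the 3 overlapping windows of Cldn12 held CCGGAAG once, and the windows of Ocln and Tjp1 held no CCGGAAG.

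Library totals ranged from 1941518 to 7783841 counts, a 4.01-fold range, with the lowest in replicate 1 of Tspan8pos MHCIIlo. Values per library are CPM, counts scaled to library size, after TMM normalization, and a floor of 3 counts corresponds to 0.385 to 1.65 CPM. Such floors and the counting intervals given for rare transcripts cover counting error only, because reads copied from the same molecule during amplification could not be recognised. Differences were tested with edgeR's quasi-likelihood test over 17006 genes with Benjamini-Hochberg adjustment, and "called" is used of genes with an adjusted p under 0.01 whose log2 fold change was 1 or more in either direction. With 2 libraries a subset, an exact permutation test cannot give a p below 0.333, and p-values rest on the spread shared by all genes. The sort was visible in the sorted molecules. Tspan8 lay between 3.65 and 14.6 CPM in the 4 Tspan8neg libraries and between 347 and 405 CPM in the 4 Tspan8pos libraries, and the MHCII gene H2-Ab1 averaged 5043 CPM in Tspan8neg MHCIIhi and 503 CPM in Tspan8pos MHCIIlo. The 7 mTEC markers (Epcam, Foxn1, Krt5, Krt8, Aire, Fezf2 and Cd80) were all detected in every subset, with a summed level of 3860 to 6974 CPM. Transcripts of 6 thymocyte markers summed to 336 CPM in replicate 1 and 933 CPM in replicate 2 of Tspan8neg MHCIIlo, against 62.8 to 196 CPM in the other 6 libraries. Over all libraries, cortical epithelial markers summed to 85.0 to 242 CPM and B cell markers to 6.05 to 33.5 CPM. Summed myeloid markers had 339 to 385 CPM in Tspan8neg MHCIIhi and 274 to 277 CPM in Tspan8pos MHCIIhi. They had 44.9 to 102 CPM in Tspan8neg MHCIIlo and 72.9 to 85.2 CPM in Tspan8pos MHCIIlo. Most of the sum was Lyz2 in Tspan8neg MHCIIhi (mean 305 CPM) and in Tspan8pos MHCIIhi (240 CPM). Csf1r was also higher in both MHCIIhi subsets than in both MHCIIlo subsets. Itgax was highest in Tspan8neg MHCIIlo (17.5 CPM). Flt3 was highest in Tspan8neg MHCIIhi (16.8 CPM) and had 2.92 CPM in Tspan8pos MHCIIhi. The endothelial gene Emcn, with 0 counts in Tspan8pos MHCIIhi, was the only marker at 0 in a subset. In bulk libraries, fewer cells that express a gene and less RNA per cell cannot be told apart.

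Cldn4 was by far the most abundant member in every subset. Its fitted level was 4.9-fold higher in Tspan8pos than in Tspan8neg cells within MHCIIlo and 2.6-fold higher within MHCIIhi. In Tspan8neg MHCIIlo the 2 libraries had 474 and 415 CPM, in Tspan8neg MHCIIhi 887 and 700 CPM, in Tspan8pos MHCIIhi 2278 and 1871 CPM, and in Tspan8pos MHCIIlo 2594 and 1793 CPM. No Tspan8pos library overlapped a Tspan8neg library. The log2 fold change of Tspan8pos over Tspan8neg was 2.30 ± 0.20 (SE, n = 2 against 2) within MHCIIlo, with an edgeR adjusted p of 5.42e-06. Within MHCIIhi it was 1.39 ± 0.19 (edgeR adjusted p = 1.94e-04). Between the Tspan8neg subsets, the step from MHCIIlo to MHCIIhi was 0.84 ± 0.19, which had an edgeR adjusted p of 0.00447 but stayed under the limit on the fold change.

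Cldn3, its neighbour on the chromosome, followed the same order of subsets. The libraries of Tspan8neg MHCIIlo had 69.9 and 85.1 CPM, those of Tspan8neg MHCIIhi 99.8 and 87.7 CPM, those of Tspan8pos MHCIIhi 271 and 337 CPM, and those of Tspan8pos MHCIIlo 361 and 297 CPM. All 4 Tspan8pos libraries lay above all 4 Tspan8neg libraries. The log2 fold change of Tspan8pos over Tspan8neg was 2.08 ± 0.17 in MHCIIlo and 1.70 ± 0.17 in MHCIIhi (edgeR adjusted p = 4.92e-06 and 1.92e-05). The exons of Cldn3 overlap Wbscr25 on the opposite strand. Whether the counting used strand is not settled by the sources, so Cldn3 counts may include reads of Wbscr25. The other 8 members overlap no exon of another gene.

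Cldn23 had the largest fold changes among the members with clear counts in every library. It stayed between 6.46 and 10.5 CPM in the 4 Tspan8neg libraries and reached 91.8 and 102 CPM in Tspan8pos MHCIIhi and 106 and 122 CPM in Tspan8pos MHCIIlo (23 to 82 counts against 192 to 896 counts). The mean level in Tspan8pos MHCIIlo was 114 ± 12 CPM (SD, n = 2) against 6.77 ± 0.43 CPM in Tspan8neg MHCIIlo, a log2 fold change of 4.07 ± 0.19 with an edgeR adjusted p of 1.5e-07. Within MHCIIhi the log2 fold change was 3.31 ± 0.17 (edgeR adjusted p = 2.96e-07). The gene lies at chr8:35824712-35826559 in GRCm38.

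Cldn1 was lowest in Tspan8neg MHCIIhi rather than in Tspan8neg MHCIIlo. It had 70.8 and 39.1 CPM in Tspan8neg MHCIIlo, 29.95 and 35.8 CPM in Tspan8neg MHCIIhi, 220 and 152 CPM in Tspan8pos MHCIIhi, and 257 and 208 CPM in Tspan8pos MHCIIlo. The replicates of Tspan8neg MHCIIlo differed, but neither overlapped a Tspan8pos library. Tspan8pos exceeded Tspan8neg by 2.08 ± 0.27 on the log2 scale in MHCIIlo and by 2.49 ± 0.27 in MHCIIhi (edgeR adjusted p = 1.10e-04 and 3.44e-05).

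Cldn7 was the only member called between the Tspan8neg subsets. It had 64.9 and 92.2 CPM in Tspan8neg MHCIIlo, 158 and 159 CPM in Tspan8neg MHCIIhi, 217 and 254 CPM in Tspan8pos MHCIIhi, and 269 and 263 CPM in Tspan8pos MHCIIlo. From MHCIIlo to MHCIIhi within Tspan8neg it rose by 1.01 ± 0.17 on the log2 scale (edgeR adjusted p = 7.26e-04), a value so close to the limit that the call was lost without replicate 1 of Tspan8neg MHCIIlo, where it was 0.78. Tspan8pos exceeded Tspan8neg by 1.75 ± 0.17 in MHCIIlo (edgeR adjusted p = 1.57e-05), while in MHCIIhi the log2 fold change was 0.57 ± 0.16 with an edgeR adjusted p of 0.0180, which was not called. The difference of these log2 fold changes was itself tested and came to 1.18 ± 0.24 (edgeR adjusted p = 0.00910). That call was lost in 7 of 8 fits that left out 1 library, with edgeR adjusted p-values from 2.95e-04 to 0.0529 over the 8 fits and log2 values from 0.93 to 1.45. It was kept without replicate 2 of Tspan8neg MHCIIlo.

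Occludin and ZO-1 are the partners of the claudins in the strand and beneath it. Ocln had 51.4 and 33.0 CPM in Tspan8neg MHCIIlo, 78.4 and 66.1 CPM in Tspan8neg MHCIIhi, 129 and 102 CPM in Tspan8pos MHCIIhi, and 124 and 76.7 CPM in Tspan8pos MHCIIlo. Tjp1 had 94.4 and 63.7 CPM in Tspan8neg MHCIIlo, 95.3 and 81.8 CPM in Tspan8neg MHCIIhi, 175 and 139 CPM in Tspan8pos MHCIIhi, and 180 and 155 CPM in Tspan8pos MHCIIlo. All Tspan8pos libraries lay above all Tspan8neg libraries for Tjp1, whereas the lower Ocln library of Tspan8pos MHCIIlo lay below the higher one of Tspan8neg MHCIIhi. In MHCIIlo, Tspan8pos exceeded Tspan8neg by 1.22 ± 0.26 on the log2 scale for Ocln and by 1.08 ± 0.20 for Tjp1 (edgeR adjusted p = 0.00356 and 0.00141). Both calls were lost without replicate 2 of Tspan8neg MHCIIlo, where the log2 fold changes were 0.91 and 0.81, and without replicate 1 of Tspan8pos MHCIIlo, where they were 0.86 and 0.97. In MHCIIhi the log2 fold changes were 0.68 ± 0.24 and 0.83 ± 0.19, and neither was called. The edgeR adjusted p of Tjp1 there was 0.00627, with the fold change under the limit.

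Cldn12 and Cldn8 did not share the pattern. Cldn12 was highest in Tspan8neg MHCIIlo, with 18.0 and 11.8 CPM, and had 9.98 and 8.97 CPM in Tspan8neg MHCIIhi, 8.17 and 7.32 CPM in Tspan8pos MHCIIhi, and 10.4 and 11.3 CPM in Tspan8pos MHCIIlo. None of its differences was called, and the log2 fold changes of Tspan8pos over Tspan8neg were -0.43 (95% interval -1.09 to 0.24) in MHCIIlo and -0.29 (-0.95 to 0.38) in MHCIIhi. Cldn8 was close to the floor everywhere and passed the filter on low counts only through Tspan8pos MHCIIhi, its highest subset, with 5 and 2 counts in Tspan8neg MHCIIlo, 0 and 2 in Tspan8neg MHCIIhi, 13 and 11 in Tspan8pos MHCIIhi, and 1 and 8 in Tspan8pos MHCIIlo. Its 24 counts in Tspan8pos MHCIIhi against 2 in Tspan8neg MHCIIhi gave a ratio of 15.2 after scaling for depth, with an exact 95% counting interval of 3.78 to 133. The fitted difference had an edgeR adjusted p of 0.0123 and was not called. Because the filter was passed only through Tspan8pos MHCIIhi, the ratio, its interval and this fit are given as a description.

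**Figure D1:**
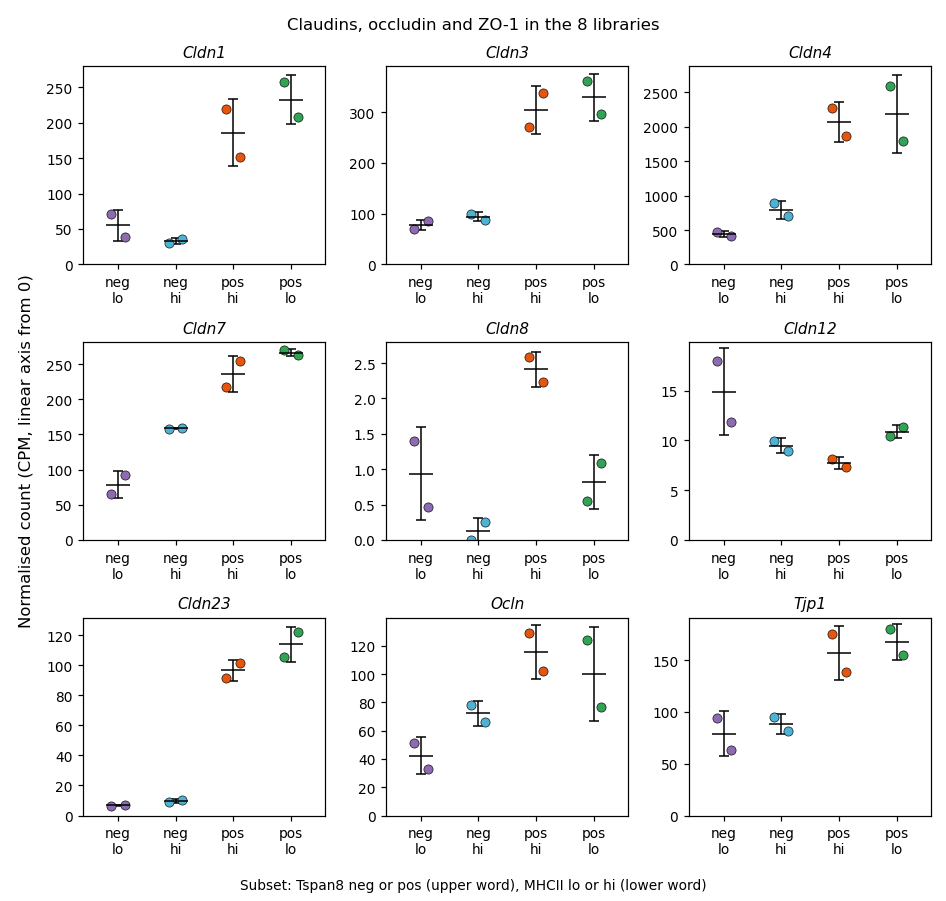
Normalised counts (CPM, linear axes from 0) of the 9 members in the 8 libraries, ordered as Tspan8neg MHCIIlo, Tspan8neg MHCIIhi, Tspan8pos MHCIIhi and Tspan8pos MHCIIlo. Points are libraries, horizontal bars are means of 2 and whiskers are 1 SD. For Cldn1, Cldn3, Cldn4, Cldn7, Cldn23 and Tjp1 all 4 Tspan8pos libraries lie above all 4 Tspan8neg libraries.

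All 9 members passed the filter on low counts. Counted together, 7 of the 9 members, all but Cldn8 and Cldn12, were called higher in Tspan8pos than in Tspan8neg cells within MHCIIlo and none lower. Over all 17006 genes tested in that comparison, 12.1% were called higher and 9.34% lower. The median log2 fold change of the members was 1.75, against -0.03 for all genes. Within MHCIIhi, 4 of 9 members were called higher, namely Cldn1, Cldn3, Cldn4 and Cldn23, and none lower, where 11% of all genes were called higher and 7.45% lower. The median of the members was 1.39 there, against -0.03 for all genes. It counts Cldn8 (log2 fold change 3.76), which passed the filter only through Tspan8pos MHCIIhi, so this median is given as a description. Without the limit on the fold change Tjp1 was the other member that passed in MHCIIhi, where 15% of all genes were then higher. These comparisons share no library, since one uses the MHCIIlo and the other the MHCIIhi libraries. Without replicate 2 of Tspan8neg MHCIIlo, the library with the most thymocyte transcripts, Cldn1, Cldn3, Cldn4, Cldn7 and Cldn23 were still called in MHCIIlo, with log2 fold changes of 1.70, 2.22, 2.21, 2.03 and 4.15.

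Across MHCII, fewer members were called. Between MHCIIhi and MHCIIlo within Tspan8pos, edgeR called none of the 9, had none at an unadjusted p under 0.05, and DESeq2 also called 0, where 7.21% of all genes were called in either direction. The log2 differences of the 8 members other than Cldn8 lay between -0.50 (Cldn12) and 0.24 (Ocln). For Cldn4 the 95% interval ran from -0.49 to 0.33 and for Cldn3 from -0.47 to 0.25, so that changes of 1 on the log2 scale lie outside both. Within Tspan8neg, 1 of 9 members (Cldn7) was called higher in MHCIIhi, where 13.1% of all genes were called higher and 9.67% lower. At an unadjusted edgeR p under 0.05, Cldn7, Cldn4, Ocln and Cldn23 were higher and Cldn1 and Cldn12 lower. The share of all genes at that level is not given here for either Tspan8 level, so that such numbers are not read as a result about the members. Without the limit on the fold change, Cldn4 was the other member called within Tspan8neg, and 15.5% of all genes were higher. For Cldn1 the log2 difference in Tspan8neg was -0.73 ± 0.27, with an edgeR adjusted p of 0.0517, and without replicate 2 of Tspan8neg MHCIIlo it was called at -1.11. The test of whether the Tspan8 difference itself depended on MHCII called 1 of 9 members, Cldn7, where 4.6% of all genes were called. The value for Cldn4 was 0.92 ± 0.26, with an edgeR adjusted p of 0.0461.

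**Figure D2:**
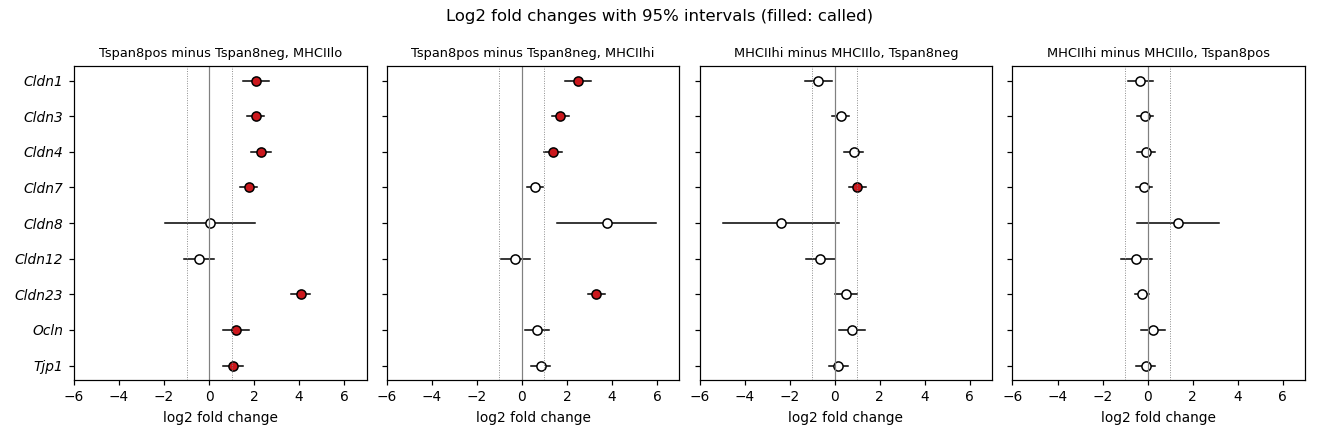
Fitted log2 fold changes of the 9 members with 95% intervals in 4 comparisons, 2 of Tspan8pos over Tspan8neg (left) and 2 of MHCIIhi over MHCIIlo (right). Filled points were called and dotted lines mark a log2 fold change of 1 in either direction. There 7 and 4 members are filled in the Tspan8 panels, 1 and 0 in the MHCII panels, and the wide intervals belong to Cldn8, which had at most 13 counts in a library.

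Ranking the subset means showed where the step lay for each member. For Cldn3, Cldn4 and Cldn23 the order was Tspan8neg MHCIIlo, Tspan8neg MHCIIhi, Tspan8pos MHCIIhi, Tspan8pos MHCIIlo, and of the 3 neighbouring differences only the middle one was called. For Cldn1 the Tspan8neg subsets changed places, and again only the middle step was called, from 55.0 CPM in Tspan8neg MHCIIlo to 186 CPM in Tspan8pos MHCIIhi (log2 fold change 1.77 ± 0.26, edgeR adjusted p = 2.78e-04), a comparison in which 14.4% of all genes were called higher. Cldn7 had the same order as Cldn4, but its called step was the one between the Tspan8neg subsets. For Ocln, Tjp1, Cldn8 and Cldn12 no neighbouring pair was called. The highest and lowest subset means differed 16.8-fold for Cldn23, 7.08-fold for Cldn1, 4.94-fold for Cldn4, 4.24-fold for Cldn3, 3.39-fold for Cldn7, 2.74-fold for Ocln, 2.12-fold for Tjp1 and 1.92-fold for Cldn12.

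To compare claudins with each other, CPM were divided by the length of the longest coding transcript and rescaled to the same total in every library. On this per-length scale, all 22 claudins in the table summed to 1012 and 1017 in Tspan8neg MHCIIlo, 1912 and 1642 in Tspan8neg MHCIIhi, 3885 and 3611 in Tspan8pos MHCIIhi, and 4719 and 3673 in Tspan8pos MHCIIlo. The Tspan8pos sums all lay above the Tspan8neg sums. Cldn4 made up 59.05% ± 4.5 (SD, n = 2) of this sum in Tspan8neg MHCIIlo and 66.75% ± 4.9 in Tspan8pos MHCIIhi. Its share ranged from 55.9% to 70.2% over the 8 libraries, and Tspan8pos and Tspan8neg libraries overlapped. In replicate 1 the Tspan8pos shares were 70.2% and 68.7%, against 62.2% and 64.0% in Tspan8neg. In replicate 2 they were 63.3% and 62.8%, against 55.9% and 58.3%. The replicate numbers were not taken as pairs, and the difference in share was not tested. Cldn3 followed with 10.45% to 14.9% of the sum as subset means, and Cldn7 with 10.4% to 16.8%. The per-length level of Cldn4 was 2774 ± 662 in Tspan8pos MHCIIlo, compared with 601 ± 71 for Cldn3, 459 ± 1.0 for Cldn7, 165 ± 21 for Cldn1 and 142 ± 18 for Cldn23. Ocln and Tjp1 reached 56.7 ± 17.7 and 54.6 ± 4.6 on the same scale.

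**Figure D3:**
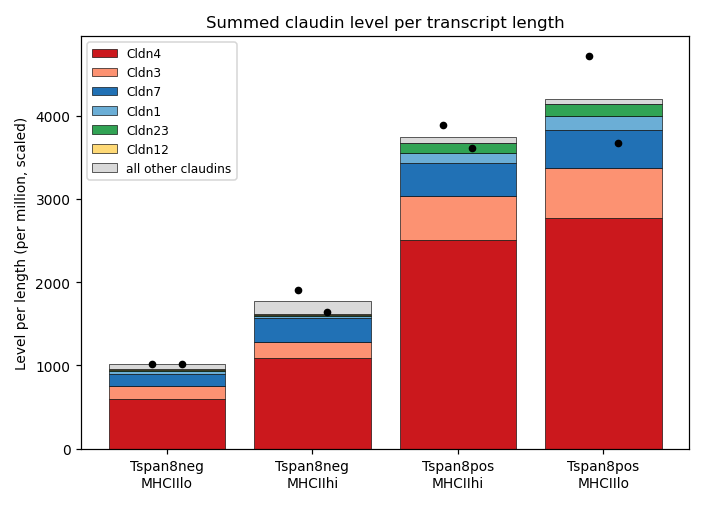
Stacked mean per-length levels (scaled as TPM, linear axis from 0) of the claudins in each subset, with the 6 most abundant members in colour and all other claudins in grey. Black points are the sums in single libraries, from 1012 to 4719; Cldn4 fills more than any other claudin in each bar.

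Of the 15 other claudins in the table, 9 passed the filter on low counts, and Cldn2, Cldn9, Cldn10 and Cldn13 were called in at least 1 comparison. Cldn2, which forms pores for small cations and water, was highest in Tspan8pos MHCIIhi, with 33.3 and 36.8 CPM, against 4.21 and 3.07 in Tspan8neg MHCIIlo, 9.77 and 11.7 in Tspan8neg MHCIIhi, and 10.4 and 7.78 in Tspan8pos MHCIIlo. No other subset reached the Tspan8pos MHCIIhi libraries. Cldn2 was called in all 4 comparisons, higher in Tspan8pos (log2 fold change 1.26 ± 0.33 in MHCIIlo and 1.70 ± 0.24 in MHCIIhi) and higher in MHCIIhi (1.57 ± 0.31 in Tspan8neg and 2.01 ± 0.26 in Tspan8pos). Cldn13, a claudin of rodents, was highest in Tspan8neg MHCIIhi, with 47.6 and 51.1 CPM, against 1.40 to 5.19 CPM in the 4 MHCIIlo libraries and 14.5 and 14.6 CPM in Tspan8pos MHCIIhi. It rose with MHCII by 3.84 ± 0.36 in Tspan8neg and 2.08 ± 0.39 in Tspan8pos (edgeR adjusted p = 1.47e-05 and 0.00383) and was lower in Tspan8pos than in Tspan8neg by a log2 fold change of -1.76 ± 0.29 in MHCIIhi (edgeR adjusted p = 7.08e-04).

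Cldn10, another pore-forming claudin, was highest in Tspan8pos MHCIIlo, with 18 and 73 counts there, 0 and 2 in Tspan8neg MHCIIlo, 3 and 11 in Tspan8neg MHCIIhi, and 6 and 17 in Tspan8pos MHCIIhi. After scaling for depth, the 91 counts in Tspan8pos MHCIIlo were 38.8 times the 2 counts in Tspan8neg MHCIIlo, with an exact 95% counting interval of 10.4 to 325. Cldn10 passed the filter on low counts only through Tspan8pos MHCIIlo, so that this ratio and its calls are given as a description. Cldn9 was highest in Tspan8neg MHCIIlo, with 19.4 and 19.3 CPM against 4.27 to 12.1 CPM in the other 6 libraries, and fell by 1.76 on the log2 scale from MHCIIlo to MHCIIhi within Tspan8neg (SE 0.30, edgeR adjusted p = 7.74e-04). Cldn18 and Cldn19, known from stomach, lung and kidney, had 35 and 31 counts in Tspan8neg MHCIIhi and 0 counts in all MHCIIlo libraries. Against the floor of 3 counts per library in Tspan8neg MHCIIlo, the Tspan8neg MHCIIhi level was at least 3.51-fold higher for Cldn18 and at least 3.23-fold higher for Cldn19. Both had 2 and 0 counts in Tspan8pos MHCIIhi. They passed the filter on low counts only through Tspan8neg MHCIIhi, so that their levels are given as a description, with no test. Cldn6, Cldn15 and Cldn34c1 were tested and not called in these comparisons. Cldn5, the claudin of endothelium, did not pass the filter and had at most 10 counts in a library, while the 5 endothelial markers summed to 95.7 to 132 CPM in Tspan8neg MHCIIlo and to 19.1 to 93.4 CPM elsewhere. The part of other cell types in these levels was not tested.

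**Figure D4:**
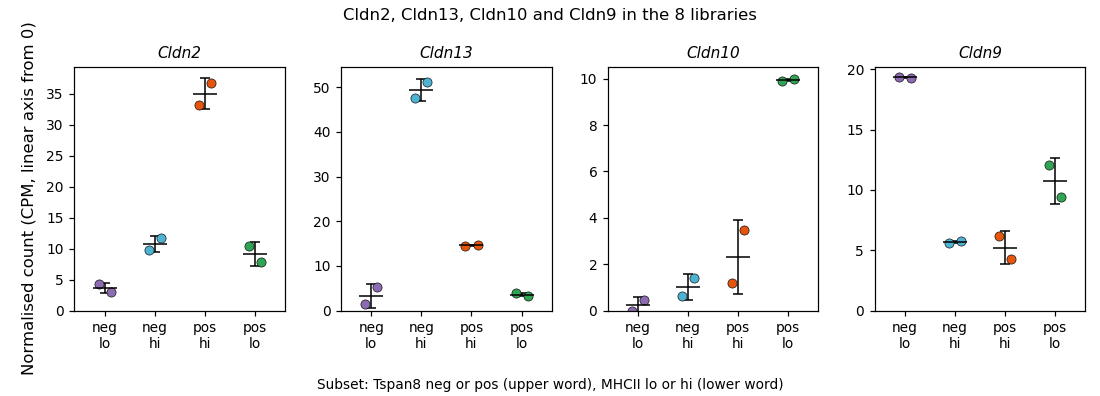
Normalised counts (CPM, linear axes from 0) of Cldn2, Cldn13, Cldn10 and Cldn9 in the 8 libraries, with means of 2 (bars) and 1 SD (whiskers). The highest subset differs for each gene, Tspan8pos MHCIIhi for Cldn2, Tspan8neg MHCIIhi for Cldn13, Tspan8pos MHCIIlo for Cldn10 and Tspan8neg MHCIIlo for Cldn9.

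The wider tight junction list adds other claudins, other transmembrane proteins and plaque and polarity proteins to the picture, without the members. Of its 45 genes tested, 17 were called higher and 2 lower in Tspan8pos within MHCIIlo, and 10 higher and 1 lower within MHCIIhi, beside the 12.1% and 11% of all genes that were called higher. The 17 include Cldn10, which passed the filter on low counts only through Tspan8pos MHCIIlo. Called higher in both were 8 genes, among them Cldn2, Tjp3, Cgn, Afdn, Ybx3, Lsr and Cxadr. The share of all genes called higher in both is not given here, so that this overlap is not read as particular to junction genes. Without replicate 2 of Tspan8pos MHCIIlo, the deepest library, 12 genes in place of 19 were called in MHCIIlo, while the calls over all genes went from 3640 of 17006 to 2273 of 17889.

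Among the plaque proteins, which sit on the inner face of the junction, Tjp3 (ZO-3) rose by 2.16 ± 0.16 on the log2 scale in MHCIIlo and 1.25 ± 0.15 in MHCIIhi. It had 67.7 and 77.3 CPM in Tspan8neg MHCIIlo, 152 and 154 CPM in Tspan8neg MHCIIhi, and 303 to 404 CPM in the 4 Tspan8pos libraries. The actin-linked adaptors cingulin (Cgn) and afadin (Afdn) rose by 1.70 ± 0.16 and 1.94 ± 0.16 in MHCIIlo and by 1.86 ± 0.16 and 1.58 ± 0.15 in MHCIIhi. Ybx3, a Y-box factor that binds ZO-1, rose by 1.27 ± 0.15 and 2.06 ± 0.15. Of 26 plaque and polarity genes tested, 7 were called higher in each comparison, beside 12.1% of all genes in MHCIIlo and 11% in MHCIIhi. Mpdz (-1.84 ± 0.41) and Amotl1 (-1.001 ± 0.20) were called lower in MHCIIlo, where 9.34% of all genes were.

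Of the 10 other transmembrane proteins tested, 8 were called higher in MHCIIlo and 2 in MHCIIhi, beside 12.1% and 11% of all genes. The virus receptor and junction protein Cxadr rose by 1.29 ± 0.29 in MHCIIlo and by 2.59 ± 0.30 in MHCIIhi, and Lsr, which marks corners where several cells meet, by 1.23 ± 0.17 and 1.08 ± 0.16. Tricellulin (Marveld2), another corner protein, rose by 1.17 ± 0.16 in MHCIIlo and had 0.18 ± 0.15 in MHCIIhi. F11r, Marveld3, Crb3 and Ildr1 rose by 1.09 to 2.23 in MHCIIlo and had log2 fold changes of 0.75 to 0.998 in MHCIIhi. There their edgeR adjusted p-values were 0.00182 to 0.00435, and only the limit on the fold change kept them from being called. Without that limit, 6 of the 10 transmembrane genes passed in MHCIIhi, where 15% of all genes were then higher. Igsf5 was called in MHCIIlo, but had 3 counts in each Tspan8neg MHCIIlo library, and no fold is given. Whether each of these genes differed between the MHCII levels in its Tspan8 response was tested. Of the wider list only Ildr1, Pard6g and Amotl2 were called, where 4.6% of all genes were.

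**Figure D5:**
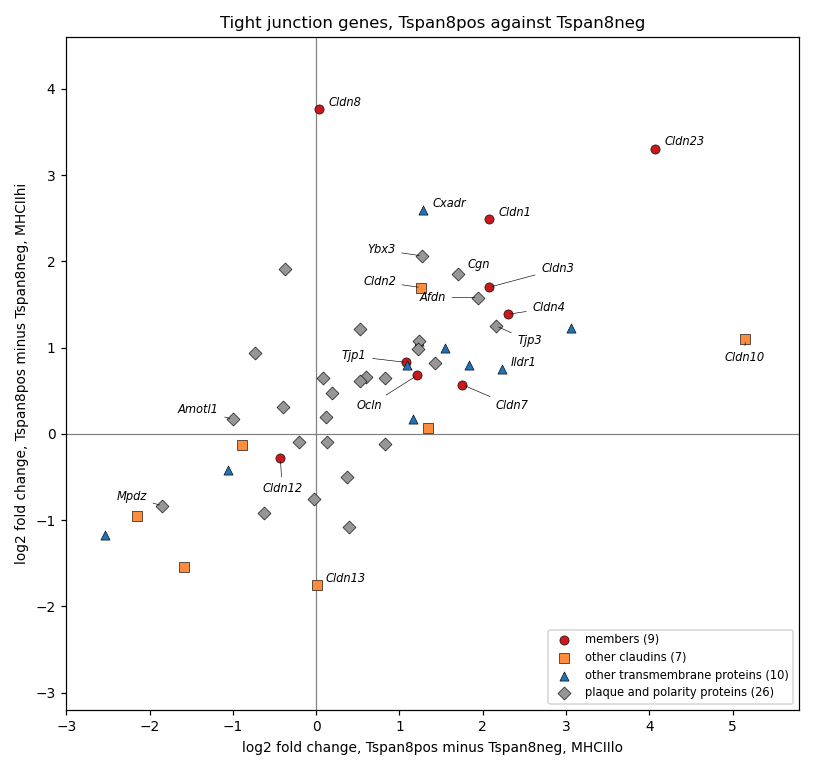
Log2 fold changes of Tspan8pos over Tspan8neg in MHCIIlo (horizontal) and MHCIIhi (vertical) for the 9 members and 43 other tight junction genes, in comparisons that share no library. Genes tested but at 0 in all libraries of a comparison (Cldn18 and Cldn19) are left out. Cldn1, Cldn3, Cldn4 and Cldn23 lie in the upper right, Cldn8 lies near 0 on the horizontal axis, and Cldn12, Mpdz and Cldn13 are among the genes below 0 on the vertical one.

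Genes that act on claudins were read from a list of 16 partners and regulators. Within MHCIIlo 8 were called higher and 2 lower in Tspan8pos, and within MHCIIhi 8 were called higher and none lower, beside shares over all genes of 12.1% higher and 9.34% lower in MHCIIlo and 11% higher in MHCIIhi. The Grainyhead-like factors, which activate junction genes in other epithelia, differed among themselves. Grhl1 rose by 2.79 ± 0.18 in MHCIIlo and 2.60 ± 0.17 in MHCIIhi, from 29.0 to 41.0 CPM in the 4 Tspan8neg libraries to 219 to 251 CPM in the 4 Tspan8pos libraries. Grhl3 rose by 3.02 ± 0.22 and 1.55 ± 0.19, and Grhl2 had 0.34 ± 0.16 in MHCIIlo and rose by 1.35 ± 0.17 in MHCIIhi. Ovol1, an epithelial repressor of mesenchymal genes, rose by 3.48 ± 0.19 and 2.25 ± 0.17. Prss8, a membrane protease that acts with St14, rose by 2.83 ± 0.17 and 2.36 ± 0.16, and its inhibitor Spint1 by 1.11 ± 0.12 and 1.33 ± 0.12. Epcam itself, whose protein was part of the gate, rose by 1.20 ± 0.17 in MHCIIlo and had 0.61 ± 0.17 in MHCIIhi with an edgeR adjusted p of 0.0135.

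Snai2 and Zeb1, repressors of epithelial junction genes, ran the other way in MHCIIlo. Zeb1 had 44.4 and 38.0 CPM in Tspan8neg MHCIIlo and 4.98 to 10.9 CPM in the other 6 libraries, and Snai2 had 49.2 and 22.9 CPM in Tspan8neg MHCIIlo and 2.24 to 8.53 CPM in the others. Tspan8neg MHCIIlo stood above all other subsets for both. The log2 fold changes of Tspan8pos over Tspan8neg in MHCIIlo were -2.35 ± 0.25 for Zeb1 and -2.75 ± 0.52 for Snai2 (edgeR adjusted p = 3.17e-05 and 0.00161), while in MHCIIhi they were -0.82 ± 0.27 and -0.77 ± 0.54 and not called. In Tspan8neg both were also lower in MHCIIhi than in MHCIIlo, by log2 fold changes of -2.04 ± 0.24 and -2.35 ± 0.47. Summed thymocyte and endothelial markers were likewise highest in Tspan8neg MHCIIlo. Summed fibroblast markers had 97.8 to 169 CPM there, 124 and 135 CPM in Tspan8neg MHCIIhi and 41.7 to 70.7 CPM in Tspan8pos subsets. Most of the sum in Tspan8neg MHCIIhi was Col1a1, with a mean of 89.9 CPM against 28.0 CPM in Tspan8neg MHCIIlo. Pdgfra, Col1a2, Dcn and Lum had lower means in Tspan8neg MHCIIhi than in Tspan8neg MHCIIlo. The part of these cell types in the levels of Snai2 and Zeb1 was not tested.

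Adherens junction genes, which hold cells together below the tight junction, moved in part with the members. Of 12 tested, 4 were called higher in Tspan8pos in MHCIIlo and 7 in MHCIIhi, and none lower, where 12.1% and 11% of all genes were called higher. Jup (plakoglobin) rose by 2.09 ± 0.17 and 2.13 ± 0.17, Nectin2 by 1.61 ± 0.14 and 1.64 ± 0.14, and Nectin4 by 3.42 ± 0.18 and 2.35 ± 0.16. E-cadherin (Cdh1) had 0.77 ± 0.22 in MHCIIlo and rose by 1.21 ± 0.22 in MHCIIhi.

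For each member, the genes with the most similar profile were those with the smallest root mean square distance between centred log2(CPM + 0.5) values over the 8 libraries, out of the 11048 genes whose mean level was 10 CPM or more. These libraries share a sort, so that many genes follow the same subsets, and the distances are descriptive. For Cldn1 the closest was Kctd11 (0.14), for Cldn3 Il1rap (0.14) and Prom2 (0.15), for Cldn4 Afap1l1 (0.13) and Slc8b1 (0.20), and for Cldn23 Slc23a3 (0.18) and Acsl1 (0.21). Cldn7 was closest to 1810019D21Rik (0.12) and Fndc7 (0.15), Ocln to Rnf24 (0.12) and Pard6b (0.13), Tjp1 to Zbtb43 (0.08) and Senp2 (0.09), Cldn12 to Ptpn14 (0.08) and Igf1r (0.11), and the rare Cldn8 to Vav3 (0.27) and Zfp618 (0.34). Among the members themselves the closest pairs were Ocln with Tjp1 (0.27) and Cldn3 with Cldn4 (0.28), and the most distant was Cldn12 with Cldn23 (2.03).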

How the data were processed

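The data are RNA-seq profiles of sorted mTECs in 8 libraries, grouped by the subset and replicate number in the sample titles, 2 for each of 4 subsets. A single table of estimated counts was deposited, whole numbers for each gene in each library and not normalized. Per the submitters' processing notes and the methods of the study, reads were quantified with Salmon 1.8.0 on the Gencode mouse transcriptome (mm10). How transcripts were summed to genes and rounded is not given in the sources used here. The library kit is described in 2 ways, with and without strand. The authors tested with DESeq2 1.30.0. Their test results were not part of the table.

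Symbols were found for 25336 identifiers (99.49%) in a later GENCODE release of GRCm38, and 130 had none. All 9 members were in the table and passed filterByExpr. Counts were fitted in R 4.3.3 with edgeR 4.0.16 (TMM, 1 mean per subset, all 8 libraries, common dispersion 0.024), with limma 3.58.1 and, as an alternative, DESeq2 1.42.0. Standard errors were obtained from the F statistic (size of the log2 fold change over root F), and p-values are two-sided.

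The members, the gene lists and the motifs were chosen with earlier results of these data known. Named genes are the 9 members, called genes of the lists, the 2 genes most like each member, and Tspan8 and H2-Ab1. Of the genes so named, 2 are not reported here. The labels call the libraries biological replicates, but whether same-numbered ones share mice is not stated. The numbers were therefore not taken as pairs, and p-values measure the spread between these libraries. Replicates differed beyond counting noise (chi-square per gene 3.29 to 9.84). Alternatives were DESeq2's Wald test and size factors, other filters, fits of 4 libraries, a replicate block, other thresholds, leaving out each library and, for levels, merged exon length. Scripts were tested on simulated data. Promoter sequences came from RefSeq.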

Additional observations from a re-analysis of the deposited data

Results flagged for a closer look

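The difference between Tspan8pos and Tspan8neg cells was compared between MHCII levels by an interaction term in the edgeR fit, in which the log2 fold change in MHCIIhi is subtracted from that in MHCIIlo. Of the members, only Cldn7 was called, at 1.18 ± 0.24 (SE, edgeR adjusted p = 0.00910). Its log2 fold change was 1.75 in MHCIIlo and 0.57 in MHCIIhi. Of 45 genes of the wider list tested, 1 was called above 0 and 2 below. Of 16 partners and regulators 1 was called above 0, and of 12 adherens junction genes 2 below. Over all genes, 4.6% were called in either direction. Ildr1, which like Lsr marks tricellular corners, differed by 1.48 (2.23 against 0.75, edgeR adjusted p = 0.00208). The transcription factor Grhl3 differed by 1.47 (3.02 against 1.55, edgeR adjusted p = 0.00873). Fits without 1 library are not given here for these genes singly. The other called genes differed in the opposite direction. Amotl2, an angiomotin-like scaffold, had -2.29, with a log2 fold change of -0.38 in MHCIIlo and 1.91 in MHCIIhi. P-cadherin (Cdh3) had -1.98 (-0.93 against 1.05), Plekha7, an adherens junction adaptor, -1.91 (-0.52 against 1.38), and the polarity protein Pard6g -1.68 (-0.74 against 0.94).

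For Amotl2, Cdh3, Plekha7 and Pard6g the mean was highest in Tspan8neg MHCIIlo and lowest in Tspan8neg MHCIIhi, with both Tspan8pos subsets between them. Plekha7, for example, had 142 and 158 CPM in Tspan8neg MHCIIlo, 32.2 and 24.7 in Tspan8neg MHCIIhi, 66.1 and 81.3 in Tspan8pos MHCIIhi, and 105 and 104 in Tspan8pos MHCIIlo. Tspan8neg MHCIIlo was also the subset with the most transcripts of thymocyte and endothelial markers, whose part in these values was not tested.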

How the results depend on the processing

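With 2 libraries a subset and totals as low as 1941518 counts, folds of genes near the floor, such as Cldn8, were not resolved. The counts of called members kept their direction under all alternatives run. Without a limit on the fold change, 20 genes of the wider junction list in place of 11 were called between Tspan8pos and Tspan8neg in MHCIIhi, and 2 members in place of 1 between MHCII levels in Tspan8neg. For the interaction, the wider list had 6 calls in place of 3 without a filter on low counts, 5 with the replicate number as a block and 5 at an adjusted p under 0.05. The block changed no call of a member, while calls over all genes for the interaction went from 783 to 1236. Over all genes, same-numbered libraries deviated from their subset means with correlations of 0.00402 to 0.0924, which cannot show whether single genes share an offset. Cldn4, Ocln and Tjp1 had more CPM in replicate 1 than in replicate 2 of every subset. Summed thymocyte markers had more in replicate 2 of every subset. Shared mice are not stated, so the numbers are not read as pairs. Leaving out 1 library at a time, the called members numbered 5 to 7 for Tspan8 in MHCIIlo, 4 to 4 in MHCIIhi, 1 to 2 for MHCII in Tspan8neg, 0 to 0 in Tspan8pos and 0 to 1 for the interaction. The wider list had 12 to 18, 8 to 13, 8 to 12, 1 to 3 and 1 to 8. It fell to 1 for MHCII in Tspan8pos without replicate 2 of Tspan8pos MHCIIlo, and rose to 8 for the interaction without replicate 2 of Tspan8neg MHCIIlo. The 2 members called for MHCII in Tspan8neg were reached without replicate 2 of either Tspan8neg subset. The Ocln call in MHCIIlo was lost in the fit of 4 libraries (edgeR adjusted p = 0.0140). Signs turned only for differences that were not called, over these ranges: Cldn8 for Tspan8 in MHCIIlo -0.70 to 0.94, Tjp1 for MHCII in Tspan8neg -0.11 to 0.46, for MHCII in Tspan8pos Cldn3 -0.27 to 0.0625, Cldn4 -0.32 to 0.23, Ocln -0.10 to 0.61 and Tjp1 -0.24 to 0.0732, and for the interaction Cldn1 -0.80 to 0.0372, Cldn12 -0.43 to 0.16 and Tjp1 -0.0278 to 0.52. The cause was not tested. With merged exon lengths the share of Cldn4 moved by less than the spread between replicates.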
